A study of Gallus gallus with 5 samples.

Results

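The genes described here are the receptors EGFR, ERBB2, ERBB3 and ERBB4, the EGF family ligands HBEGF, AREG, BTC and TGFA, the receptor MET and its ligand HGF. They were chosen by gene name, with earlier results of these data known, and all 10 were found among the 24356 genes listed. RNA had been sequenced from granulosa cells, the layer of follicle cells next to the oocyte, of 6–8-mm follicles of broiler breeder hens, with follicles pooled within each hen. The labels call these follicles recently selected, whereas the study calls them pre-hierarchal. All hens had been raised on restricted feed until 28 weeks of age, after which FF hens (2 libraries) were fed ad libitum and RF hens (3 libraries) stayed on restricted feed for 6 weeks. Each diet was given in a single pen, and the sequenced FF hens had been picked for many preovulatory follicles and the RF hens for a normal number, so diet, pen and follicle number cannot be told apart. A further FF library had been removed by the authors after clustering and was not analysed here.

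EGF family ligands are made as membrane proteins, are cut free by proteases of the ADAM family and bind to receptors that pair with one another and signal through RAS, ERK and PI3K. In mammals the LH surge makes mural granulosa cells produce AREG, EREG and BTC, which carry the ovulatory signal to the cumulus cells and the oocyte. In the hen, TGFA and other EGF receptor ligands are known from culture work to hold granulosa cells of pre-hierarchal follicles in an undifferentiated state through ERK. MET is the receptor of hepatocyte growth factor (HGF), a protein that in mammalian follicles comes largely from theca cells and acts on the granulosa layer.

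MET was the one member that passed the test between the diets, with lower values in FF hens. The values of MET (Ensembl gene ENSGALG00000036883) were 666 and 572 normalized counts in FF replicates 1 and 2, and 1503, 2254 and 2207 in RF replicates 1, 2 and 3. A normalized count is the number of reads on a gene divided by a factor for the depth of the library, so that values of one gene can be set side by side across hens. Both FF hens lay below all 3 RF hens, and the gap from 666 to 1503 was wider than the range inside either group. The mean of FF hens was 619 ± 66.5 (SD, n = 2), and that of RF hens was 1988 ± 421 (SD, n = 3). MET was 3.16-fold lower in FF hens, a log2 fold change of −1.66 with a standard error of 0.21 and a 95% confidence interval from −2.17 to −1.15 (adjusted p = 0.0275, limma with Benjamini-Hochberg adjustment over 13305 tested genes). Fold changes are FF minus RF on the scale of log2(normalized count + 1), which understates changes of genes with few reads. In these RNA samples a smaller number of MET-expressing cells and less MET RNA per cell cannot be told apart.

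MET was 1 of 9 tested members called at an adjusted p under 0.05, against 1.08% of all tested genes called in either direction, 0.842% called higher in FF hens and 0.241% called lower. It also passed the study's thresholds as applied here to the limma fit. These were a log2 fold change beyond 1 in size and a group mean of at least 200. Of tested genes, 0.15% passed them with lower values in FF hens. The study itself used DESeq2 and a minimum read count of 200, so this share is not the study's. It found more genes higher in RF hens than the 20 that passed here, but fewer than it found higher in FF hens. The study lists MET among its genes higher in RF hens, from these same libraries, and the members were chosen with earlier results known. Neither the call of MET nor its direction here is therefore independent evidence, and 1 of 9 cannot be weighed against the shares of all genes. The call rested on few hens: the adjusted p was 0.186 without FF replicate 1, 0.159 without FF replicate 2 and 0.0882 without RF replicate 2, while the log2 fold change stayed between −1.85 and −1.55.

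**Figure D1:**
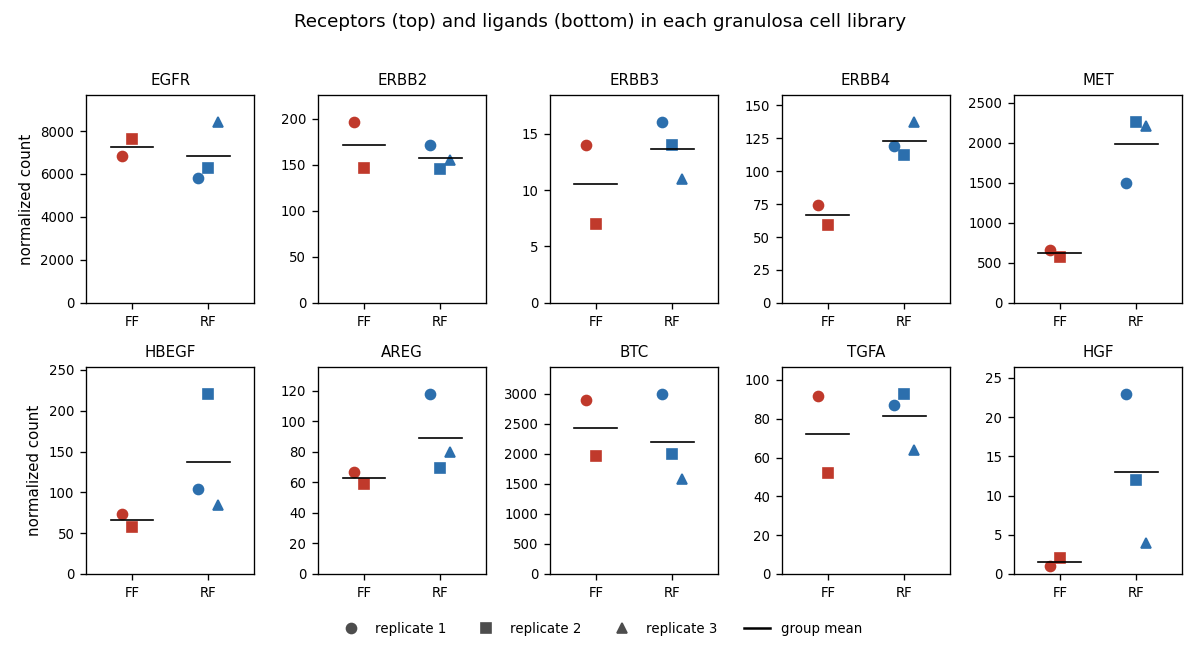
Normalized counts of the 5 receptors (top row) and the 5 ligands (bottom row) in each library, with FF hens in red, RF hens in blue, a marker for each replicate number and a black line at each group mean; every vertical axis starts at 0 and has its own range. MET stands at 666 and 572 in FF hens and between 1503 and 2254 in RF hens, whereas the points of EGFR, ERBB2, ERBB3, BTC and TGFA overlap between the diets.

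Of the EGF receptor family, EGFR and ERBB2 overlapped between the diets. EGFR, which binds EGF, TGFA, AREG, BTC and HBEGF, had 6838 and 7631 normalized counts under FF and 5807, 6276 and 8397 under RF. The highest and the lowest of the 5 values were both RF hens, and the groups overlapped. The log2 fold change was 0.10 with a 95% confidence interval from −0.33 to 0.53 (adjusted p = 0.813, limma). ERBB2, a receptor with no ligand of its own that serves as a partner for the others, had 196 and 147 in FF hens and 172, 145 and 155 in RF hens. These groups overlapped as well, with a log2 fold change of 0.11 and an interval from −0.47 to 0.69. Neither interval shows that the diets were alike.

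ERBB4, a receptor of the neuregulins that also binds BTC and HBEGF, had 74 and 59 normalized counts under FF and 119, 112 and 137 under RF. Both FF hens lay below all RF hens, and the values within each diet were close together. Its log2 fold change of −0.88 (standard error 0.27, interval from −1.52 to −0.23) had an unadjusted p of 0.0148 and did not pass the adjustment over all genes (adjusted p = 0.176, limma). The estimate stayed between −1.04 and −0.72 when single hens were left out. ERBB3, a neuregulin receptor with little kinase activity of its own, had 14 and 7 in FF hens and 16, 14 and 11 in RF hens. At this depth, about 8 to 15 reads per library, its interval ran from −1.66 to 0.85 and no difference was detectable.

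**Figure D2:**
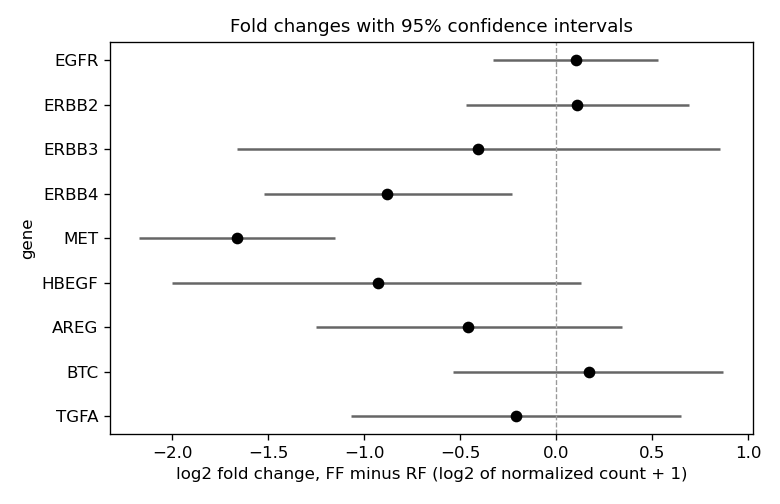
Log2 fold changes of the 9 tested members, FF minus RF, as points with their 95% confidence intervals from limma as lines; the horizontal axis is in log2 units of the normalized count plus 1, and the dashed line marks no change. The interval of MET, from −2.17 to −1.15, and that of ERBB4, from −1.52 to −0.23, lie below 0 before adjustment over all genes, while those of the other 7 cross it.

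Among the ligands, BTC (betacellulin) had 2893 and 1958 normalized counts in FF hens and 3005, 2003 and 1584 in RF hens. The highest 2 values came from different diets, and the log2 fold change was 0.17 with an interval from −0.54 to 0.87. TGFA (transforming growth factor alpha) had 92 and 52 in FF hens and 87, 93 and 64 in RF hens. The FF hens held both a value close to the maximum and the minimum, and the log2 fold change of −0.21 had an interval from −1.07 to 0.65. AREG (amphiregulin), which binds EGFR, had 67 and 59 in FF hens and 118, 69 and 80 in RF hens. The groups did not overlap, but the gap between them was 67 against 69, and the log2 fold change of −0.46 (interval from −1.25 to 0.34) went to −0.24 without RF replicate 1 (adjusted p = 0.52 with all hens, limma).

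HBEGF (heparin-binding EGF-like growth factor), which is released from the cell surface and binds EGFR and ERBB4, had 74 and 57 normalized counts in FF hens and 104, 221 and 85 in RF hens. Both FF hens were lowest, and RF replicate 2 held 2.6 times the value of RF replicate 3. The log2 fold change of −0.93 had an interval from −2 to 0.13 and did not pass the test (adjusted p = 0.334, limma), and without RF replicate 2 it was −0.53. In RF hens HBEGF had a coefficient of variation of 53.9%, against 8.53% expected from counting reads alone.

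HGF was close to the limit of detection in these cells. The deposited values were 1 and 2 normalized counts under FF and 23, 12 and 4 under RF, and the mean of 8.4 was below the minimum of 10 set for the test. Every RF hen lay above both FF hens. These values correspond to about 3 reads in FF hens and 36 in RF hens together, about 19 of them in RF replicate 1. The ratio was 7.58 in favour of RF hens, with an exact 95% interval from 2.4 to 38.5 that covers counting error only. It leaves out variation between hens: in RF hens the coefficient of variation of HGF was 73.4%, against 29.0% from counting. With genes of any level tested, the adjusted p of HGF was 0.278 (limma). The study's upstream regulator analysis named HGF among the predicted regulators of its differentially expressed genes, a prediction that does not measure HGF RNA. Theca and stroma markers, genes listed here for the cells outside the granulosa layer, mostly had estimates below 0. Of their 13 tested genes 0 were called by limma. At an unadjusted p under 0.05 (limma) 4 were lower and 1 was higher in FF hens, against 17.8% of all tested genes in either direction. Their summed normalized counts were 9365 and 9712 in FF hens and 10273, 6891 and 9156 in RF replicates 1, 2 and 3. PDGFRA, a receptor of stromal cells, was at 0 in both FF hens and at 56, 14 and 7 in RF hens. CYP17A1, the androgen-producing enzyme of theca cells, had 73 and 134 in FF hens and 1794, 84 and 207 in RF hens. The median log2 fold change of the 13 tested markers was −1.66, against 0.01 over all tested genes. ACTA2, MYH11 and COL1A2, which made up most of each sum, were the only tested ones above 0. Their log2 fold changes were 0.87, 0.26 and 0.21. Which cells the RNA of ACTA2, MYH11 and COL1A2 came from was not tested. Without RF replicate 1, the library with the highest value in 10 of the 15 theca and stroma markers, the log2 fold change of MET was −1.85 (adjusted p = 0.0448, limma). That fit does not remove the difference in PDGFRA, which was at 14 and 7 in RF replicates 2 and 3 and at 0 in both FF hens. The part of theca or stroma RNA in the values of HGF and MET was not tested.

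Across the members, the groups did not overlap in 4 of the 9 tested genes (MET, ERBB4, HBEGF and AREG), all with lower values in FF hens, and in HGF below the filter. Among all tested genes 36.3% did not overlap in either direction and 16.9% with FF hens lower. The estimate was below 0 for 6 of the 9 and above 0 for 3, with a median log2 fold change of −0.41, against 0.01 over all tested genes. At an unadjusted p under 0.05 there were 2 members, MET and ERBB4, against 17.8% of all tested genes.

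The members differed in depth, and so in the error that counting reads alone gives. In RF hens the coefficient of variation of MET, EGFR and BTC was 21.2%, 20.2% and 33.2%, beside 2.21%, 1.19% and 2.18% from counting. For ERBB2 it was 8.68% in RF hens and 20.2% in FF hens, beside 7.99% and 7.84%. For ERBB4 and ERBB3 the RF values of 10.5% and 18.4% stood beside 8.97% and 27.3%, and for AREG and TGFA those of 28.9% and 18.8% beside 10.7% and 11.2%.

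The other EGF family ligands included genes with higher values in FF hens. EGF, the founding ligand of EGFR, had 78 and 72 normalized counts under FF and 24, 26 and 33 under RF. NRG1, a neuregulin that binds ERBB3 and ERBB4, had 144 and 76 in FF hens and 33, 25 and 41 in RF hens. Both FF hens were above all RF hens for either gene, with log2 fold changes of 1.42 (standard error 0.34) and 1.66 (standard error 0.41) that did not pass the adjustment (adjusted p = 0.103 and 0.109, limma). NRG4, a neuregulin that binds ERBB4, had 276 and 278 in FF hens and 329, 264 and 201 in RF hens. EPGN (epigen) had 12 to 29 normalized counts under both diets. EREG (epiregulin) was listed at 0 in all 5 libraries, although EPGN, EREG and AREG follow one another in the RefSeq gene order of the GRCg7b assembly. Of the 4 tested genes of this list 0 were called by limma and 2 were at an unadjusted p under 0.05, EGF and NRG1. The median log2 fold change was 0.76. Over all tested genes 17.8% were at an unadjusted p under 0.05 (limma), 19.3% did not overlap with FF hens higher, and the median was 0.01. The same shares and median stand beside the gene lists that follow.

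**Figure D3:**
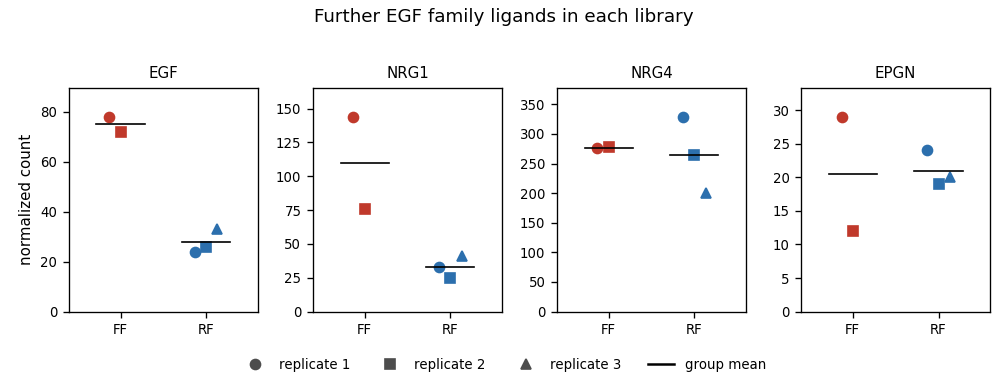
Normalized counts of EGF, NRG1, NRG4 and EPGN in each library, with FF hens in red, RF hens in blue, a marker for each replicate number and a black line at each group mean; each vertical axis starts at 0. EGF stands at 78 and 72 in FF hens and at 24 to 33 in RF hens, and NRG1 at 144 and 76 against 25 to 41, while NRG4 and EPGN overlap.

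Genes that release the ligands from the cell surface came next. ADAM17, the main sheddase of TGFA, AREG and HBEGF in mammals, had 6905 and 7390 normalized counts in FF hens and 6850, 6675 and 6768 in RF hens (log2 fold change 0.08, standard error 0.11). ADAM10, which sheds EGF and BTC in mouse cells, had 9289 and 10050 in FF hens and 10188 to 12804 in RF hens (log2 fold change −0.24). FURIN, a proprotein convertase, had 11208 and 9142 against 7373, 6217 and 7364, a log2 fold change of 0.54 that did not pass the test (adjusted p = 0.135, limma). Of 8 tested genes of shedding and release 0 were called by limma, 1 was at an unadjusted p under 0.05, and the median was 0.02.

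Of 12 tested genes listed as restraining the receptors, 0 were called by limma, with a median of −0.02. At an unadjusted p under 0.05 (limma) 1 was higher in FF hens and 2 were lower. LRIG2 and RNF41, the latter a ubiquitin ligase that acts on ERBB3, had log2 fold changes of −0.01 and 0.16. ERRFI1, an inhibitor of the EGFR kinase that is itself induced by EGFR signalling, had 713 and 793 normalized counts in FF hens and 787, 858 and 848 in RF hens. CBL, the ubiquitin ligase that sends EGFR and MET to degradation, had 787 and 757 in FF hens and 963, 980 and 1077 in RF hens (log2 fold change −0.38, adjusted p = 0.23, limma). LRIG3 had 24 and 13 against 61, 72 and 37 (log2 fold change −1.57, adjusted p = 0.162, limma). LRIG1, of the same family, had 356 and 498 against 433, 435 and 429 (log2 fold change −0.04). Whether LRIG2 and LRIG3 restrain the receptors in these cells was not tested. SH3KBP1, of the same list, had 699 and 868 in FF hens and 428, 593 and 444 in RF hens (log2 fold change 0.69, adjusted p = 0.174, limma). ERRFI1, CBL, LRIG1, LRIG3 and SH3KBP1 were named after their values were seen.

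Of 19 tested adaptors and effectors next to the receptors, 1 was called higher in FF hens by limma and 0 were called lower. Over all tested genes 0.842% were called higher and 0.241% lower. At an unadjusted p under 0.05 the list held 2 higher and 2 lower, against 17.8% of all tested genes in either direction. The called gene was PLCG1, the phospholipase C recruited to EGFR and MET, with 3317 and 2794 normalized counts in FF hens and 616, 753 and 402 in RF hens (log2 fold change 2.41, standard error 0.27, adjusted p = 0.0223, limma). The study names PLCG1 from these libraries too, and its call was lost without RF replicate 1 (adjusted p = 0.076) and without FF replicate 1 or 2 (0.192 and 0.135). GRB2, the adaptor that links the receptors to RAS, had 2198 and 2286 in FF hens and 1987 to 2137 in RF hens. GAB1, the docking protein of MET, had 1587 and 1718 in FF hens and 1627, 1955 and 2277 in RF hens (log2 fold change −0.23). SRC, a kinase that acts with EGFR, was at 5454 and 5304 against 3694, 3128 and 3404 without passing the test (adjusted p = 0.0653), and the PI3K subunit PIK3CB was at 1321 and 1332 against 2088, 2053 and 2991 (adjusted p = 0.0999). The median of the list was 0.09, and GRB2, GAB1, SRC and PIK3CB were named after their values were seen.

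Of 7 tested genes around MET and HGF, 0 were called by limma, 2 were at an unadjusted p under 0.05 and the median was −0.30. PLXNB2, a semaphorin receptor of a family that associates with MET, had 4086 and 4341 normalized counts in FF hens and 3775, 3409 and 5630 in RF hens. PLAU (urokinase), a protease that can activate HGF, had 912 and 1491 in FF hens and 1152, 10328 and 1385 in RF hens, so that a single RF hen set the group mean. ST14 (matriptase), which also activates HGF, had 2509 and 834 in FF hens and 558, 453 and 596 in RF hens (log2 fold change 1.44, adjusted p = 0.166, limma). NRP1 (neuropilin), a co-receptor, had 8 and 5 in FF hens and 197, 134 and 26 in RF hens (log2 fold change −3.61, adjusted p = 0.0996). HGFAC, the HGF activator, was at 1 to 12, and MST1R, the receptor most like MET, at 0 to 5, both below the filter. MST1, the ligand of MST1R, had 704 to 1255 over the 5 libraries. ST14, NRP1, HGFAC, MST1R and MST1 were named after their values were seen.

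Of 14 tested target and feedback genes of ERK, the kinase downstream of these receptors, 0 were called by limma and 4 were at an unadjusted p under 0.05, with a median of −0.38. MYC had 1404 and 1232 normalized counts in FF hens and 1701, 2104 and 1827 in RF hens (log2 fold change −0.51, adjusted p = 0.162). DUSP1, a phosphatase that inactivates MAP kinases, had 2196 and 1553 against 1308, 904 and 1215 (log2 fold change 0.71, adjusted p = 0.182). FOS, an immediate early gene, had 446 and 338 against 689, 635 and 759 (log2 fold change −0.83, adjusted p = 0.0953). SPRY1, a feedback inhibitor, was at 140 and 135 against 92, 71 and 96, and its relative SPRY2 at 19 and 20 against 45, 62 and 22. FOS, SPRY1 and SPRY2 were named after their values were seen, and 2 of the 4 genes at an unadjusted p under 0.05 were higher in FF hens and 2 lower.

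Of 7 tested genes that act downstream of EGFR in mammalian ovulation, 0 were called by limma and 2 were at an unadjusted p under 0.05, with a median of −0.63. VCAN (versican), a matrix proteoglycan, had 30184 and 36898 normalized counts in FF hens and 24934, 26947 and 46748 in RF hens. ADAMTS1, a protease that cuts versican, had 2358 and 1957 against 2078, 4831 and 3658. The genes of the cumulus matrix HAS2 and PTX3 were at 0 to 7 in every library, below the filter. RUNX2, a transcription factor, had 106 and 148 in FF hens and 195, 420 and 342 in RF hens (log2 fold change −1.27, adjusted p = 0.152, limma). Its relative RUNX1 had 404 and 450 in FF hens and 279, 329 and 326 in RF hens (log2 fold change 0.46, adjusted p = 0.266). HAS2, PTX3, RUNX1 and RUNX2 were named after their values were seen.

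RF replicate 2, the hen with most HBEGF, also held the highest values of several genes of these lists. Its values were 626 normalized counts for EGR1, an immediate early transcription factor, where the other hens had 26 to 86. DUSP5, a phosphatase of ERK, was at 197 against 16 to 25, and PTGS2, the prostaglandin synthase of ovulation, at 1003 against 71 to 160. With PLAU and HBEGF these made 5 of the 80 tested list genes and members with a value at least 2 times that of every other library. Over all tested genes RF replicate 2 had such a value in 0.714%, and the other 4 libraries in 0.361% to 1.33%. FOS was not among them, at 635 in RF replicate 2. This pattern was seen after the values had been inspected and was not tested.

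**Figure D4:**
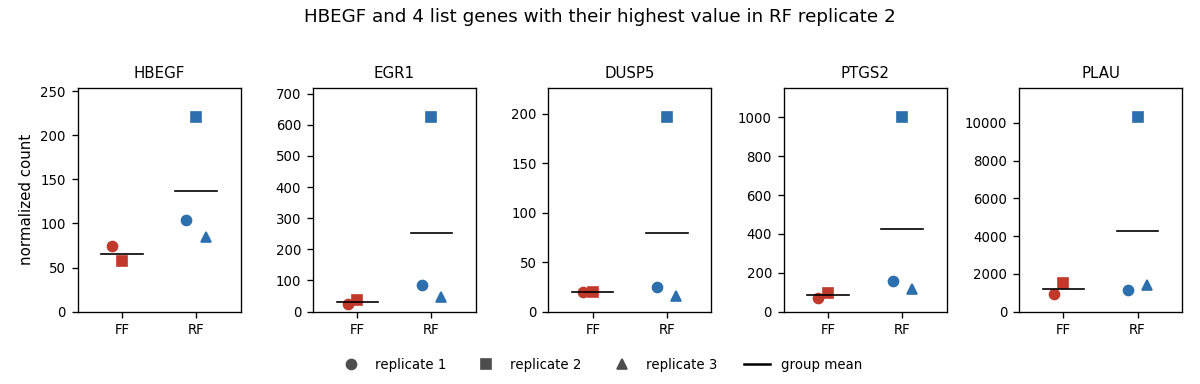
Normalized counts of HBEGF, EGR1, DUSP5, PTGS2 and PLAU in each library, with FF hens in red, RF hens in blue, a marker for each replicate number and a black line at each group mean; each vertical axis starts at 0. In every panel the square of RF replicate 2 is the highest point (221, 626, 197, 1003 and 10328), and the other 4 hens lie well below it.

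The genes whose profile over the 5 libraries was closest to that of MET were AGTPBP1, PLPPR1, ARID5B, DPEP2 and ADAMTS3. Closeness was the root mean square difference of log2 values centred on each gene's mean, over 7954 other genes with a symbol and a mean of at least 200. The differences ran from 0.178 for AGTPBP1, an enzyme that shortens the glutamate tails of tubulin, to 0.241 for ADAMTS3, a procollagen and VEGFC-processing metalloproteinase. AGTPBP1 had 120 and 72 normalized counts in FF hens and 216, 380 and 334 in RF hens. ARID5B, a chromatin-binding factor, had 428 and 291 against 697, 1085 and 1462. ADAMTS3 had 183 and 234 against 548, 1024 and 836 and was the one of the 5 called (log2 fold change −1.90, adjusted p = 0.0436, limma). That call was lost when any single hen was left out (adjusted p from 0.0548 to 0.246). The adjusted p of the other 4 ran from 0.0558 to 0.0858. All but DPEP2 are among the top genes that the study lists as higher in RF hens, from these same libraries. All 5 share with MET the low FF hens and a minimum among RF hens in RF replicate 1. This follows from choosing them by closeness to MET over these same libraries and is no separate result.

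**Figure D5:**
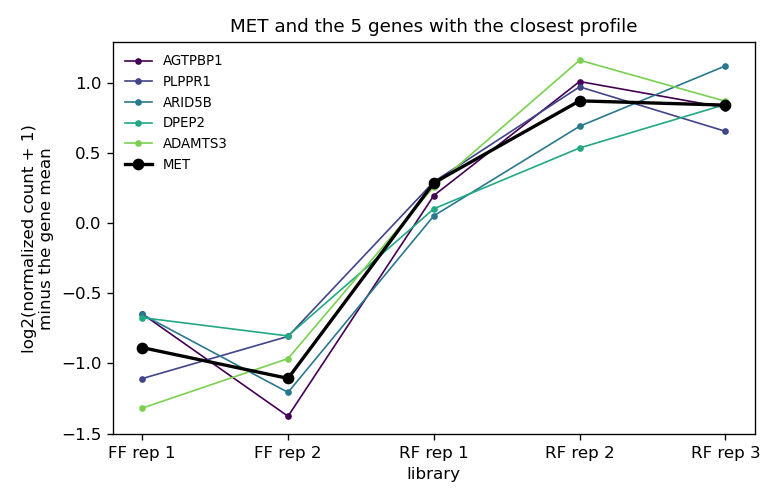
Centred log2 values of MET (black) and of the 5 genes with the smallest root mean square difference from it (coloured lines), in the 5 libraries on the horizontal axis; the vertical axis is log2(normalized count + 1) minus the mean of each gene. All 6 lines lie below 0 in the FF libraries and above 0 in the RF libraries, which follows from choosing the genes by closeness to MET.

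The genes next to MET in the genome were read from the same fit. In the RefSeq gene order of GRCg7b, used here for order only, MET lies between CAPZA2 and CAV1. ST7 and CAPZA2, on one side, had 1761 and 1603 and 2674 and 2903 normalized counts in FF hens, with log2 fold changes of 0.54 and 0.18. Their direction was opposite to that of MET, and neither passed the test. On the other side, CAV2, of the caveolin family, had 8 and 9 in FF hens and 18, 34 and 13 in RF hens (log2 fold change −1.15, adjusted p = 0.337, limma). These groups did not overlap, in the direction of MET, without passing the test, and CAV1 was at 0 to 31, below the filter. Of 26 tested genes among the nearest pair on either side of each member, 0 were called by limma.

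The identity of the cells was checked with marker genes. Of 8 tested granulosa markers 3 were called higher in FF hens by limma (INHA, NR5A1 and CYP11A1) and 0 lower. At an unadjusted p under 0.05 (limma), 2 were lower in FF hens, WT1 and AMH, with log2 fold changes of −1.42 and −0.62. From these same libraries, the study reports INHA, NR5A1 and CYP11A1 as higher in FF hens and WT1 as higher in RF hens. GATA4 and AMH, the most abundant by normalized count, were at 29524 to 38730 and 17336 to 38052. The theca and stroma markers had a median log2 fold change of −1.66, with LUM at 0 to 1. The 2 most abundant of them were ACTA2 and COL1A2. Endothelial markers summed to 1821 and 3127 in FF hens and 1910 to 2680 in RF hens (0 of 7 called), led by PECAM1 and TIE1. Most of each sum was PECAM1, the only one with an estimate above 0 (log2 fold change 0.50). The median of the list was −0.83. KDR and ERG were lower in FF hens at an unadjusted p under 0.05 (limma), with log2 fold changes of −2.84 and −2.98. Red blood cell markers summed to 3636 and 3941 against 1291 to 1617, with 1 of 4 called, ALAS2, and HBA1 at 145 and 327 against 27 to 60. Most of each sum was ALAS2, at 3369 and 3318 in FF hens and 1528, 1230 and 1243 in RF hens. White blood cell markers (CD3E and CSF1R leading, CD4 at 0 to 5) summed to 934 to 1261 against 687 to 973, oocyte markers (BMP15 and ZAR1) to 846 to 1092 against 1167 to 1937, and surface epithelium markers (EPCAM and KRT19, with UPK3B at 0) to 3385 to 4879 against 3232 to 4383, with 0 called in each. Within these lists some genes were at an unadjusted p under 0.05 (limma). Of the white blood cell markers, CD3D was higher and CSF1R lower in FF hens, with log2 fold changes of 1.4 and −0.88. Of the oocyte markers, GDF9 and BMP15 were lower, at −0.87 and −0.54. Of the surface epithelium markers, MSLN was higher and KRT19 lower, at 1.39 and −0.91. The part of the cells marked by all these lists in the values of the receptors and ligands was not tested. The libraries held 25929234 to 29491091 normalized counts, and their relative depths, read from the steps between low values, spanned size factors of 0.824 to 1.23.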

How the data were processed

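Granulosa cell RNA of 2 FF and 3 RF hens, 1 library per hen, had been enriched for poly(A) RNA, sequenced with a directional kit, trimmed with Trim Galore, aligned to galGal6 with STAR and normalized with DESeq2 by the authors; the read counter and the tool versions were not given in the sources used here. Their deposited numbers are normalized counts that the authors rounded to whole numbers, and were treated as a score, not as read counts. The normalized count that 1 read gives was estimated from skipped and repeated low values as 0.813 to 1.213. The observed and modelled patterns of low values correlated at 0.408 in RF replicate 2 and at 0.901 in RF replicate 1. In 3 libraries the estimate is below 1, so whole reads could only be approximated, and the test between the diets used no count model. The ratio and exact interval of HGF and the counting errors rest on these approximate reads.

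Values were tested as log2(normalized count + 1), FF minus RF, with limma 3.58.1 in R 4.3.3 (variance trend, two-sided, Benjamini-Hochberg adjustment) over 13305 genes with a mean of at least 10; there were 3 residual and 3.7 prior degrees of freedom. The fit was also run on simulated data with independent normal errors of the size it had itself estimated. Those data follow the model of the fit, so they cannot test the calls made from these hens. Members and lists were chosen with earlier results of these data known, matched by symbol and given as counts and medians with no set test. Of the 10 members, 9 passed the filter. Genes named are all members, list genes called (else the 2 with the highest mean), the 5 closest to MET, and the 2 most abundant markers of each cell type. Others are stated where they appear or here. Outside this rule, with their values known, were ADAM17, EGF, EPGN and EREG. The same holds for the markers WT1, PDGFRA, CYP17A1, MYH11, LUM, KDR, ERG, CD3D, CD4, GDF9, MSLN and UPK3B. Alternatives changed the pseudocount, minimum mean, scaling, variance model and replicate block, and left out each hen. Exact intervals used scipy 1.17.1, and figures matplotlib 3.10.9. Protein and promoter sequences, and genome coordinates, were not used here.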

Additional observations from a re-analysis of the deposited data

How the results depend on the processing

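With genes of any level tested, 14 genes were called by limma (14 past the study's thresholds as applied here), with 0 members and 0 list genes. MET kept a log2 fold change of −1.66 (adjusted p = 0.0657, limma). Without the variance trend, 0 genes were called by limma, against 2188 at an unadjusted p under 0.05, and MET stood at −1.66 (adjusted p = 0.0934). With the replicate block, 62 genes were called by limma (61 past the study's thresholds), 0 members and 2 list genes, and MET stood at −1.57 (adjusted p = 0.0628). The shared numbers do not pair hens, since each library came from a different hen and each diet had its own pen. Deviations correlated at 0.11 for number 1 and −0.07 for number 2. These values cannot test pairing, because the 2 FF hens deviate from their mean by equal and opposite amounts. Leaving out single hens gave 1 to 128 genes called (1 to 114 past the study's thresholds), 0 to 1 members, 0 to 2 list genes, and −1.85 to −1.55 for MET. The other alternatives gave 132 to 160 calls, against 144, and MET was called in each. With equal totals 90 genes were higher and 70 lower, with equal upper quartiles 98 and 61, against 112 and 32; these scalings moved the median of all genes from 0.01 to −0.13 and −0.10, and MET to −1.80 and −1.77. Members near 0 changed sign without being called. EGFR went to −0.04 (equal totals) and −0.01 (equal upper quartiles) and ran from −0.01 (without RF replicate 1) to 0.26 without single hens. ERBB2 went to −0.02 (equal totals) and ran from −0.09 (without FF replicate 1) to 0.32. BTC went to −0.04 (replicate block) and ran from −0.11 (without FF replicate 1) to 0.45, with −0.04 without RF replicate 3. ERBB3 ran from −0.86 to 0.05 and TGFA from −0.62 to 0.19, both highest without FF replicate 2. The cause of these shifts was not tested. HGF and ERBB3 are limited by depth, and all calls by the 2 FF hens.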
